A study of Mus musculus with 2 samples.

Results

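Integrins and the extracellular matrix genes around them were measured in BV2 cells, an immortalized mouse microglial cell line, cultured in DMEM/F12 or in DMEM. The members were chosen by gene symbol alone, as integrin alpha and beta subunits, collagens, laminins, fibronectin, thrombospondins, tenascin-C, versican, matrix metalloproteinases (MMPs), ADAM proteases and ADAMTS proteases. Itgax was left out by this rule. It took 164 of the 19938 genes with a transcript cluster of their own, measured by 191 clusters, where a cluster is the group of probes that the array reads as 1 transcript. Of the 164 genes, 44 were collagens, 34 ADAMs, 22 MMPs, 18 ADAMTS proteases, 17 integrin alpha and 9 integrin beta subunits and 10 laminins. A further 7 were Fn1, Tnc, Vcan and the thrombospondins. The last 3, Itgb1bp1, Itgb1bp2 and Itgb3bp, match the naming pattern but encode proteins named for binding integrins and not subunits.

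Both arrays come from BV2 cells plated in DMEM/F12 with serum. On the day after plating the DMEM/F12 culture received fresh DMEM/F12, the high-nutrient medium, and the DMEM culture was moved into DMEM, the control medium. RNA was taken about 1 day later, and the labels give over 1 day. Each medium has 1 culture and 1 Affymetrix Mouse Gene 1.0 ST array, so the comparison has no replicates, no test was run, and each difference describes these 2 arrays. A difference is the log2 signal in DMEM/F12 minus that in DMEM.

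Integrins are cell surface receptors made of 1 alpha and 1 beta subunit, and the pair decides the ligand. They bind matrix proteins such as fibronectin, laminin, vitronectin and collagen, and on leukocytes also counter-receptors on other cells, and they link these ligands to the actin cytoskeleton. Collagens and laminins build the matrix and the basement membrane, while MMPs, ADAMs and ADAMTS proteases cut matrix proteins or release the outer parts of membrane proteins. Macrophages and microglia use the leukocyte beta 2 integrins for adhesion and phagocytosis.

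The 2 arrays had nearly equal median signals, 4.77 in DMEM/F12 and 4.75 in DMEM on the log2 scale. Background was set at the 95th percentile of the signals of 1248 clusters for smell, pheromone and taste receptors, at 4.17 in DMEM/F12 and 4.15 in DMEM, and 66.3% of all genes were above it on at least 1 array. The cells carried macrophage markers, with 10 of 11 above background in both media, among them Cd68 at 11.21 in DMEM/F12 and 11.10 in DMEM. Aif1 was the marker not above background. Of the markers of microglia in tissue, 3 of 5 were above background, with Tmem119 at 6.05 in DMEM/F12 and 6.71 in DMEM, Cx3cr1 at 5.26 in DMEM/F12 and 5.34 in DMEM, and Sall1 at 4.84 in DMEM/F12 and 4.85 in DMEM. P2ry12 and Siglech were not. Of 5 markers of fibroblasts, which make much of the collagen in tissue, Dcn, Lum and Dpt were below background and 2 were above it, Pdgfra at 4.27 in DMEM/F12 and 4.32 in DMEM and Pdpn at 4.82 in DMEM/F12 and 4.60 in DMEM. Over all 5 the summed log2 signal was 16.4 in DMEM/F12 and 16.5 in DMEM. Of other measured markers, 3 of 3 for oligodendrocytes, 2 of 4 for epithelial and 1 of 5 for endothelial cells were above background on at least 1 array. So was 1 of 4 each for astrocytes and neurons. Passing this threshold therefore does not by itself show that BV2 cells express a gene.

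The set as a whole differed little between the media. Its median difference was 0.04, against 0.00 over all genes, and 148 of the 164 genes (90.2%) lay within 1.3-fold. Higher signals in DMEM/F12 were found for 91 genes (55.5%), equal signals for 11 and lower signals for 62, while 47.2% of all genes were higher. At least 1.3-fold higher were 9 genes (5.49%), against 4.88% of all genes, and at least 1.3-fold lower were 7 genes (4.27%), against 4.38% of all genes. At 1.5-fold no gene was higher and 1 was lower, Adam34, where 0.928% and 0.727% of all genes were past this fold in those directions. The shares past either fold are near those of all genes. Adam34 is known for expression in testis and was not above background on either array.

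A gene counted as above background on an array if at least 1 of its clusters was. Of the 164 genes, 104 were above background on at least 1 array (63.4%), 97 of them on both. Among the 104 genes, 66 were higher (63.5%), against 48.5% of all genes above background, with a median of 0.08 against 0.00. At least 1.3-fold higher were 6 of them (5.77%), where 4.24% of all genes above background were, and at least 1.3-fold lower were 2 (1.92%), where 3.94% were. The 6 higher genes were Lamc1, Adamts1, Lamb1, Itga6, Col5a2 and Mmp23, and the 2 lower genes were Adam21 and Itgb5. Of these 8, Lamb1 and Col5a2 passed background only in DMEM/F12 and Adam21 only in DMEM, so for those 3 genes 1 side is a bound. Genes that pass on 1 array alone are picked in part by their difference. The other genes that passed on 1 array alone were Adam19 in DMEM/F12 and Adamts15, Adamts20 and Mmp20 in DMEM.

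**Figure D1:**
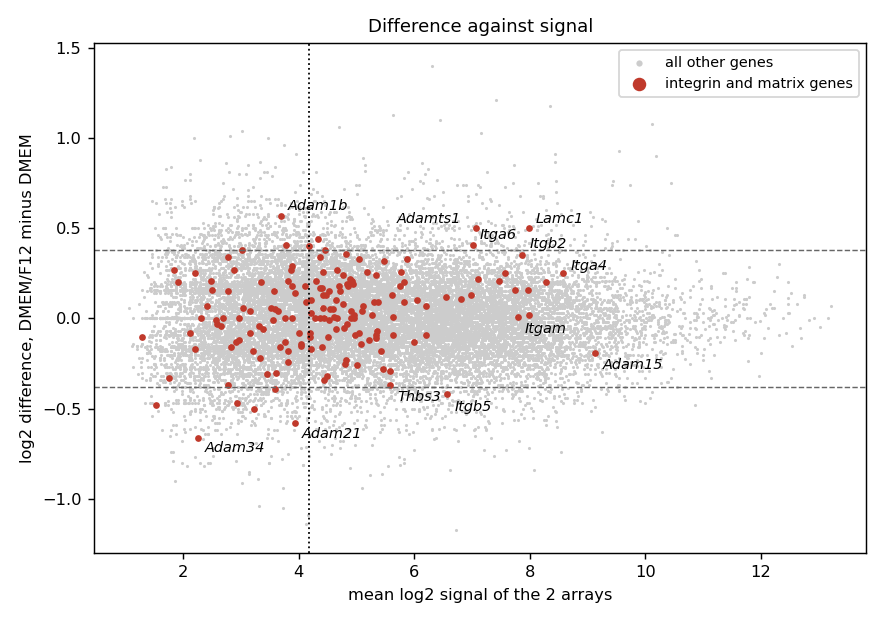
Every gene by the size of its log2 difference (y axis, DMEM/F12 minus DMEM) and its mean log2 signal on the 2 arrays (x axis), with the 164 integrin and matrix genes in red and all others in gray. Dashed lines mark 1.3-fold and the dotted line background; Lamc1 and Adamts1 lie highest among the red genes above background, both at 0.50, and Adam34 and Adam1b, on the left, were not above background.

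The regions before the start sites of Adamts1 and Itgb5 are shown because these genes are the member with the highest and the one with the lowest difference among the 56 members that were above background on both arrays, have 1 cluster and have exactly 1 entry in the promoter table. Genes with an entry on 1 other chromosome were not eligible. The sequences are from RefSeq (GRCm38.p6), which gave 109 of the 164 genes at least 1 entry. Each runs 5′ to 3′ along the gene, from 250 bases before to 50 bases after the start site. Capitals mark matches on either strand to the GC box GGGCGG, the CCAAT box CCAAT, the TATA box TATAAA or the AP-1 site TGANTCA. The first is chr16:85803064-85803363 on the minus strand and the second chr16:33829415-33829714 on the plus strand.
Adamts1: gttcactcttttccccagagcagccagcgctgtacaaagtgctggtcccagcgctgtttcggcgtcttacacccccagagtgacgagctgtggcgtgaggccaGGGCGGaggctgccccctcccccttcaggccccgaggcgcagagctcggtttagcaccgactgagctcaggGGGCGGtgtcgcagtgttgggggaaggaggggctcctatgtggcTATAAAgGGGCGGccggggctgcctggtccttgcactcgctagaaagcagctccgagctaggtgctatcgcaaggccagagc
Itgb5: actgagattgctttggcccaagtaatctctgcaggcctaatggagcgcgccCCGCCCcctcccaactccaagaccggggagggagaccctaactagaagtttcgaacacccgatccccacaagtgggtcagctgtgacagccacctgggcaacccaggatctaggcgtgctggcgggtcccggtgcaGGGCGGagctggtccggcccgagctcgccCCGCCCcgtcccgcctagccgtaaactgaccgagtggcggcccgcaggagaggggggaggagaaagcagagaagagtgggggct
The Adamts1 window holds 3 GC boxes and a TATA box that begins at position -32 from the start site, followed by the GC box at -25. The Itgb5 window holds 3 GC boxes, at -63 on the gene's strand and at -199 and -34 on the other, and no TATAAA. Of the 32851 windows of this length in the table, 35.7% hold a GC box, 37.4% a CCAAT box, 13.6% the TATA letters and 7.81% the AP-1 letters. Bases G and C make up 64.7% of the Adamts1 and 65.7% of the Itgb5 window, against a median of 52.7%. The matches describe the letters of these windows, and factor binding was not measured here.

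Among integrin alpha subunits, 10 of the 11 genes above background were higher in DMEM/F12, where 48.5% of all genes above background were. The 10 differences ran from 0.01 to 0.41, and the class median over all 17 was 0.07. Itga6, whose product pairs with beta 1 or beta 4 as a laminin receptor, had a log2 signal of 7.22 in DMEM/F12 and 6.81 in DMEM (1.33-fold, cluster 10472820). Of all genes above background, 3.21% had a difference at least as high. Itga4, the alpha chain of the receptor for VCAM-1 and fibronectin, had 8.71 in DMEM/F12 and 8.46 in DMEM (1.19-fold). Itgav, the alpha chain of vitronectin receptors, also differed by 0.25, with 7.69 in DMEM/F12 and 7.44 in DMEM. Itga5, which with beta 1 forms the classical fibronectin receptor, had 8.05 in DMEM/F12 and 7.89 in DMEM. The 3 alpha chains Itga4, Itgav and Itga5 were therefore higher, each by less than 1.2-fold.

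Of the leukocyte alpha chains that pair with beta 2, the members Itgam, Itgal and Itgad differed by less than 0.1 and Itgax by 0.44. Itgam, the alpha chain of complement receptor CR3 (CD11b), had 7.80 in DMEM/F12 and 7.79 in DMEM. Itgal, the alpha chain of LFA-1, had 6.23 in DMEM/F12 and 6.16 in DMEM. Itgad, measured by 2 clusters, differed by 0.02, with -0.07 in the cluster above background and 0.11 in the one below it. Itgax (CD11c), which pairs with the same beta chain and is not counted among the members, had 8.98 in DMEM/F12 and 8.54 in DMEM (1.36-fold). The 1 lower alpha subunit above background was Itga2b, the platelet alpha chain, with 4.88 in DMEM/F12 and 5.14 in DMEM. Itga2, a collagen receptor chain, had 3.99 in DMEM/F12 and 3.58 in DMEM, both below background, and its difference of 0.41 is between 2 values in the range of the receptor genes.

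The integrin beta subunits differed in both directions. Itgb2, the shared beta chain of the leukocyte integrins (CD18), had a log2 signal of 8.04 in DMEM/F12 and 7.69 in DMEM (1.27-fold, cluster 10364262). Itgb1, the partner of most matrix-binding alpha chains, had 7.83 in DMEM/F12 and 7.67 in DMEM. The opposite was seen for Itgb5, which pairs with the alpha v chain and binds vitronectin, with 6.36 in DMEM/F12 and 6.78 in DMEM (1.34-fold lower, cluster 10435305). The difference of Itgb5 was -0.42, and 2.72% of all genes above background had one at least as low. Itgav, its alpha partner, was higher, so the 2 chains of this receptor lay on opposite sides of 0.

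Itgb7, a partner of Itga4 on lymphocytes, had 6.16 in DMEM/F12 and 6.25 in DMEM, a difference of -0.09. Itgb3, the other beta chain of vitronectin receptors, was below background in both media (4.02 in DMEM/F12 and 3.73 in DMEM), as was Itgb8, a partner of the alpha v chain in the activation of latent TGF-beta (2.91 in DMEM/F12 and 3.03 in DMEM). Of the 3 genes named for binding integrins, Itgb1bp1 had 6.86 in DMEM/F12 and 6.75 in DMEM, and Itgb1bp2 and Itgb3bp were below background with differences of 0.27 and -0.24.

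**Figure D2:**
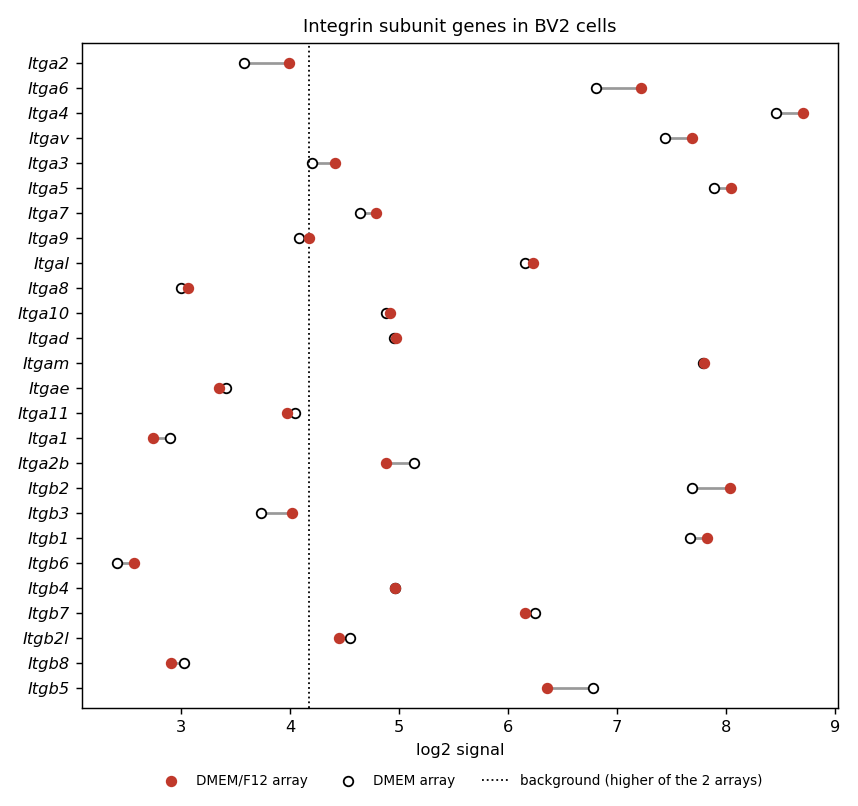
Log2 signal (x axis) of each of the 17 alpha and 9 beta integrin subunit genes (y axis, alpha above beta and ordered by difference), on the DMEM/F12 array (red circles) and the DMEM array (open circles), a gray line between them and a dotted line at background. Itga6 and Itgb2 have the red circle on the right, Itgb5 has it on the left, and for Itgam the circles overlap at 7.80 and 7.79.

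Laminins, the heterotrimeric glycoproteins of basement membranes, were higher in 8 of 10 genes, equal in 1 (Lama3) and lower in 1 (Lama4). All 7 laminin genes above background were higher in DMEM/F12, by 0.07 to 0.50, where 48.5% of all genes above background were higher. Of these, 6 passed on both arrays, and Lamb1 passed in DMEM/F12 alone, so its direction was in part set by the threshold. The class median over all 10 was 0.09. With background at the 99th percentile of the receptors (4.94 in DMEM/F12 and 4.90 in DMEM), 3 of the 10 laminins were above it. Lamc1, the gamma 1 chain found in most laminins, had a log2 signal of 8.23 in DMEM/F12 and 7.73 in DMEM (1.41-fold, cluster 10358816), and 1.63% of all genes above background had a difference at least as high. Lamb1, the beta 1 chain that assembles with it, had 4.55 in DMEM/F12 and 4.11 in DMEM. The DMEM value is below background at the 95th percentile, so that by this threshold the gene was at least 1.32-fold higher. At the 99th percentile both Lamb1 values were below background, and no bound can be given. The alpha chains, which a laminin trimer needs as well, were close to or below background. Lama5 had 4.81 in DMEM/F12 and 4.73 in DMEM, Lama1 4.26 in DMEM/F12 and 4.16 in DMEM, and Lama2, Lama3 and Lama4 were below background on both arrays.

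The remaining laminin chains above background were Lamb2, Lamb3 and Lamc3, with differences of 0.07, 0.15 and 0.09. Lamc1 and the laminin receptor chain Itga6 thus both lay past 1.3-fold in the same direction, while Itgb1, the beta partner of Itga6, differed by 0.16. Itgb4, its other partner, had 4.96 in both media.

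Fibronectin and the other matrix glycoproteins were mostly at background. Fn1, the fibronectin gene, had 3.62 in DMEM/F12 and 3.57 in DMEM. Tnc, the tenascin-C gene, had 3.55 in DMEM/F12 and 3.56 in DMEM, and Vcan, the gene of the proteoglycan versican, had 3.01 in DMEM/F12 and 2.74 in DMEM. Thbs2 and Thbs4 were also below background. The 2 thrombospondin genes above background were both lower in DMEM/F12. Thbs3 had 5.40 in DMEM/F12 and 5.77 in DMEM (1.29-fold lower), and Thbs1, which encodes an inhibitor of angiogenesis and activator of latent TGF-beta, had 4.26 in DMEM/F12 and 4.60 in DMEM (1.27-fold lower). The Thbs1 signal lay just above background in DMEM/F12.

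Collagens made up the largest class, with 43 of 44 genes above background on at least 1 array (97.7%). Their signals ranged from 3.44 to 6.61 in DMEM/F12 and from 3.24 to 6.49 in DMEM, with medians of 5.07 in DMEM/F12 and 5.03 in DMEM. The background threshold rests on receptor probes and was not matched to the base composition of collagen probes, which is not in the tables used here, so the 43 genes are not a count of collagens that BV2 cells express. With background at the 99th percentile of the receptors (4.94 in DMEM/F12 and 4.90 in DMEM), 28 collagens were above it.

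By difference, 28 collagens were higher (63.6%), 3 equal and 13 lower, with a median of 0.08. Of all genes 47.2% were higher, with a median of 0.00. Col5a2, a chain of fibrillar collagen V, had 4.37 in DMEM/F12 and 3.97 in DMEM, and with its DMEM value raised to background it was at least 1.16-fold higher. Its partner Col5a1 had 5.31 in DMEM/F12 and 5.05 in DMEM. The genes of collagen VI, which forms beaded filaments next to basement membranes, went both ways. Col6a2 had 5.21 in DMEM/F12 and 4.88 in DMEM (1.26-fold), and Col6a1, whose chain joins the same trimer, had 5.43 in DMEM/F12 and 5.72 in DMEM (1.22-fold lower). Col6a5 was measured by 2 clusters, with differences of 0.49 in the cluster below background and 0.19 in the one above it.

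The fibrillar collagen I genes were slightly lower, Col1a1 with 5.93 in DMEM/F12 and 6.06 in DMEM and Col1a2 with 5.28 in DMEM/F12 and 5.39 in DMEM. The basement membrane collagen IV genes Col4a1 and Col4a2 differed by -0.07 and 0.09. Col9a3 and Col9a2, chains of a collagen known from cartilage, differed by 0.12 and 0.10. Col18a1, the source of endostatin, had 5.63 in DMEM/F12 and 5.31 in DMEM (1.25-fold). No collagen above background on both arrays was past 1.3-fold in either direction.

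**Figure D3:**
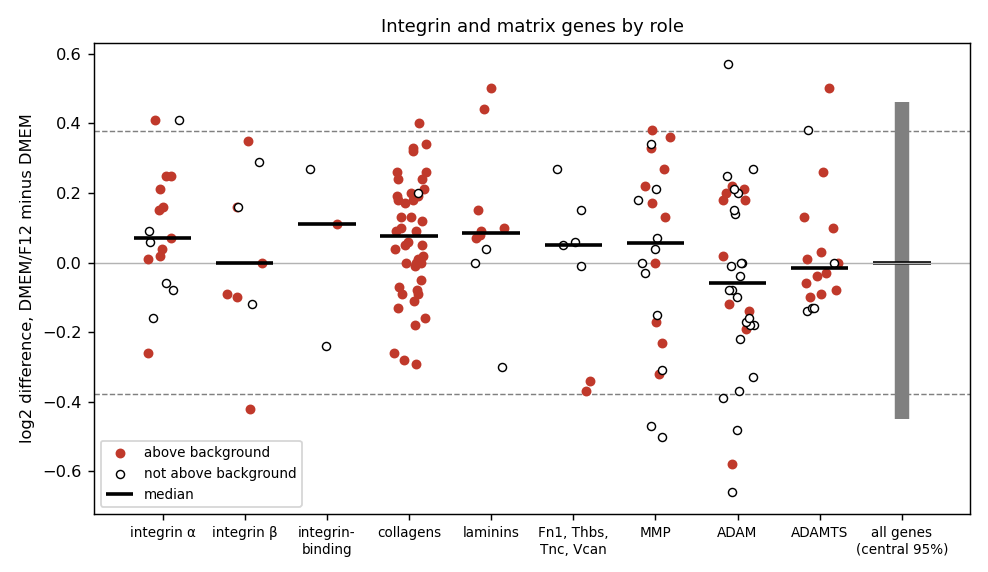
The 164 genes by role (x axis) and by log2 difference (y axis, DMEM/F12 minus DMEM), in red where the gene was above background on at least 1 array and open where it was not, with a black line at the class median. The gray bar spans the central 95% of all genes, from -0.45 to 0.46, and the dashed lines mark 1.3-fold. The 7 red laminin points all lie above 0, and Lamb1 among them passed background in DMEM/F12 alone.

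Of the 22 MMPs, 11 were above background on at least 1 array, of which 7 were higher in DMEM/F12 (63.6%), 1 equal and 3 lower. Of all genes above background 48.5% were higher. The lower genes include Mmp20, which passed in DMEM alone. Mmp19 had 6.04 in DMEM/F12 and 5.71 in DMEM (1.26-fold). Mmp9, the gelatinase B of leukocytes, had 4.99 in DMEM/F12 and 4.63 in DMEM (1.28-fold), and the gelatinase A gene Mmp2 had 4.99 in DMEM/F12 and 4.77 in DMEM. Mmp14, the membrane-bound MMP that activates pro-MMP-2, had 4.79 in DMEM/F12 and 4.52 in DMEM (1.21-fold). These 4 genes were all higher, each by less than 1.3-fold. With background at the 99th percentile of the receptors (4.94 in DMEM/F12 and 4.90 in DMEM), 4 of the 22 MMPs were above it on at least 1 array. By that threshold Mmp14 was below background in both media, and Mmp9 and Mmp2 were below it in DMEM.

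Mmp23 had 4.64 in DMEM/F12 and 4.26 in DMEM (1.3-fold) and was the only MMP above background past that fold. With the arrays rescaled in 3 ways its difference was 0.36 each time, short of that fold. Mmp11 had 4.32 in DMEM/F12 and 4.64 in DMEM (1.25-fold lower), and Mmp17, a membrane-anchored MMP, had 4.70 in DMEM/F12 and 4.93 in DMEM. Mmp12, the macrophage elastase, was below background, with 3.18 in DMEM/F12 and 3.14 in DMEM. So were the collagenase genes Mmp8 and Mmp13, which had the differences -0.50 and -0.31.

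The ADAM proteases split by detection. Only 10 of 34 were above background on at least 1 array (29.4%), where 66.3% of all genes were, and many of the others are known for expression in testis. The sheddase genes lay well above background. Adam17, which encodes the TNF-converting enzyme TACE, had 8.38 in DMEM/F12 and 8.18 in DMEM (1.15-fold), and Adam10, the alpha-secretase of the amyloid precursor protein and a Notch sheddase, had 7.21 in DMEM/F12 and 6.99 in DMEM (1.16-fold). Adam8, a protease of leukocytes, had 7.58 in DMEM/F12 and 7.37 in DMEM (1.16-fold).

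Adam9 was equal within 0.02, with 8.0 in DMEM/F12 and 7.98 in DMEM, and Adam15, whose disintegrin domain binds integrins, had 9.04 in DMEM/F12 and 9.23 in DMEM (1.14-fold lower). Adam21 had 3.64 in DMEM/F12, below background, and 4.22 in DMEM, just above it. Raised to background, its difference of -0.58 came to -0.05, or at least 1.04-fold lower. Adam34 had 1.92 in DMEM/F12 and 2.58 in DMEM, and Adam1b 3.97 in DMEM/F12 and 3.40 in DMEM, all below background.

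Adamts1, a protease of aggrecan and versican, had a log2 signal of 7.32 in DMEM/F12 and 6.82 in DMEM (1.41-fold, cluster 10440522), and 1.63% of all genes above background had a difference at least as high. None of the other 12 ADAMTS genes above background was past 1.3-fold. Adamts10, known for its link to fibrillin microfibrils, had 7.04 in DMEM/F12 and 6.91 in DMEM. Adamts13, the protease of von Willebrand factor, had 4.55 in DMEM/F12 and 4.29 in DMEM (1.20-fold), and Adamts7 had 5.30 in DMEM/F12 and 5.39 in DMEM. The versican gene, whose product is a substrate of ADAMTS1, was below background in both media.

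**Figure D4:**
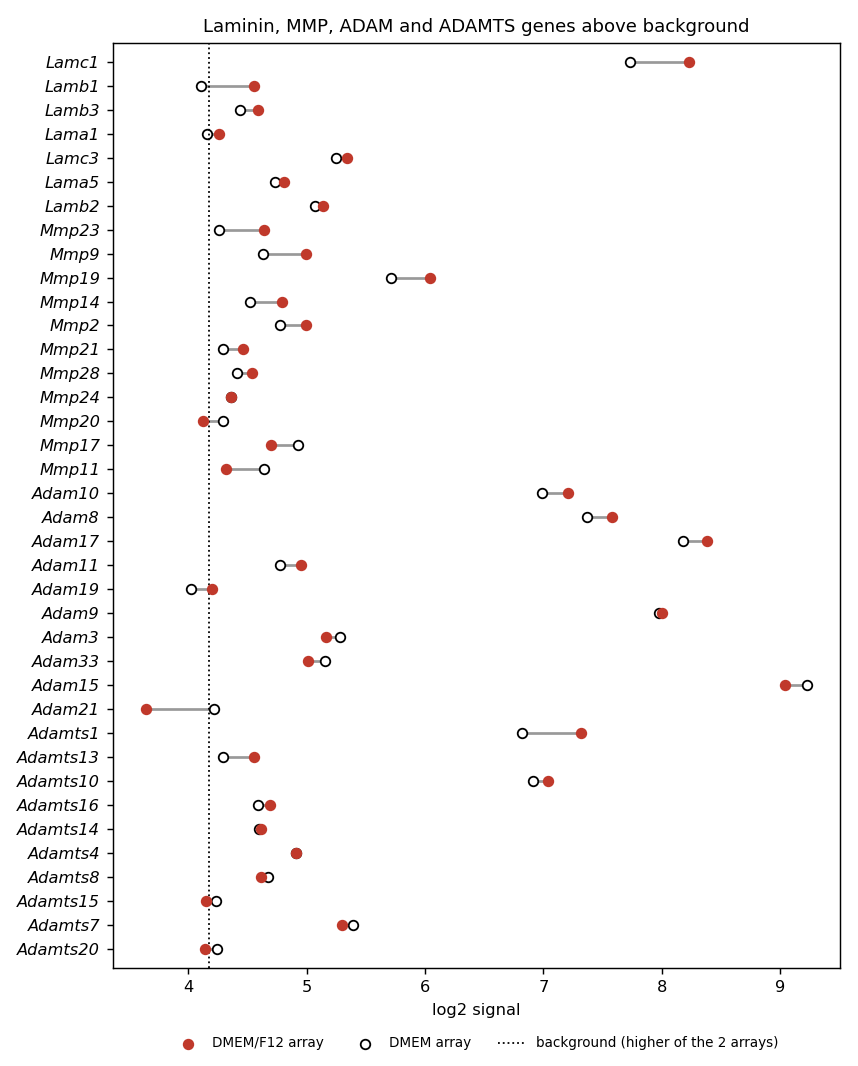
Log2 signal (x axis) of the laminin, MMP, ADAM and ADAMTS genes with 1 cluster that were above background on at least 1 array (y axis, ordered by difference within each class), on the DMEM/F12 array (red circles) and the DMEM array (open circles), with a dotted line at background. The widest gaps with both circles above background are those of Lamc1 and Adamts1, at 0.50 each.

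Some genes had several clusters, which share the same 2 RNA samples and are not replicates. Adamts3 was measured by 16 clusters, with differences from -0.58 to 0.34 and an SD of 0.26 between clusters. Of these, 5 were higher and 9 lower. Adamts9 had 6 clusters, from -0.29 to 0.34, and Adamts17 had 5, from -0.27 to 0.27. These 3 genes were singled out for their number of clusters, and their means were -0.04, 0.03 and -0.03. For Adamts17, 1 cluster had 6.91 in DMEM/F12 and 7.03 in DMEM, and another had 2.90 in DMEM/F12 and 2.63 in DMEM. The SD between clusters was 0.21 for Adamts9 and 0.20 for Adamts17, and the SD between all 164 genes was 0.22. Above background were 2 clusters of Adamts3 and 3 each of Adamts9 and Adamts17. Adamts3 counted as above background through its 2, with gene means of 3.29 in DMEM/F12 and 3.33 in DMEM.

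**Figure D5:**
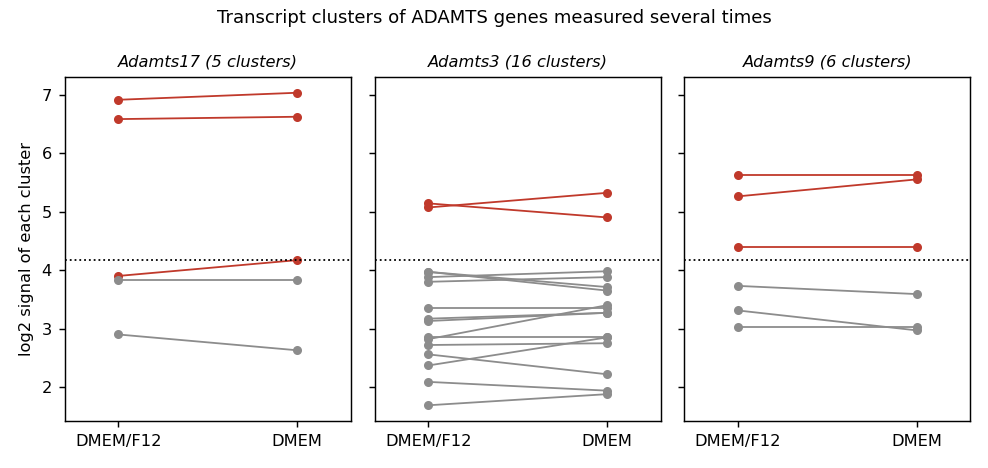
Log2 signal (y axis) of each transcript cluster of Adamts17, Adamts3 and Adamts9 on the DMEM/F12 array and the DMEM array (x axis), 1 line per cluster, in red where the cluster was above background on at least 1 array and gray where it was not, with a dotted line at background. The lines of Adamts3 run in both directions, with differences from -0.58 to 0.34.

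The genes that work with integrins and the matrix were counted from 6 lists outside the naming rule. Of all genes above background 48.5% were higher, 4.24% at least 1.3-fold higher and 3.94% at least 1.3-fold lower, with a median of 0.00. The counts above background include genes that passed on 1 array alone. Of 36 measured integrin activators and focal adhesion adaptors, 20 had higher and 16 lower signals in DMEM/F12 (median difference 0.03), and over the 31 above background 18 were higher, with a median of 0.07. Past 1.3-fold was 1 gene. That gene was Lims1 (PINCH1), part of the complex with integrin-linked kinase, with 8.2 in DMEM/F12 and 7.78 in DMEM (1.34-fold). Fblim1 (migfilin), an adaptor that binds filamin, had 9.73 in DMEM/F12 and 9.40 in DMEM. Of 19 other matrix receptors, 9 had higher and 7 lower signals (median difference 0.00), and over the 16 above background 8 were higher, with a median of 0.02. Cd36, a receptor of thrombospondin-1, had 3.67 in DMEM/F12 and 4.48 in DMEM, and was at least 1.24-fold lower with the DMEM/F12 value raised to background. Cd93 had 4.61 in DMEM/F12 and 3.89 in DMEM, and was at least 1.38-fold higher by the same measure.

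Of the proteases and inhibitors that act beside the MMPs and ADAMs, 18 were measured, 8 of them with higher and 8 with lower signals (median difference 0.00). Over the 12 above background 7 were higher, with a median of 0.24, and 3 were at least 1.3-fold higher and 0 lower. Of all genes above background 4.24% were at least 1.3-fold higher and 3.94% lower. Plau, the urokinase gene, had 8.90 in DMEM/F12 and 7.99 in DMEM (1.88-fold), the largest difference of any gene above background on both arrays in the 6 lists. Furin, a convertase that removes the propeptides of ADAMs and membrane-type MMPs, had 8.54 in DMEM/F12 and 8.10 in DMEM (1.36-fold), and Hpse, the heparanase gene, 5.85 in DMEM/F12 and 5.45 in DMEM (1.32-fold). Of 22 collagen processing enzymes, 11 had higher and 10 lower signals (median difference 0.02), and over the 17 above background 8 were higher, with a median of -0.06. P4hb, a subunit of prolyl hydroxylase, had 9.32 in DMEM/F12 and 9.63 in DMEM. P4ha3 had 4.19 in DMEM/F12 and 3.64 in DMEM, at least 1.03-fold higher with the DMEM value raised to background. In the 17 basement membrane and proteoglycan genes the median was 0.06, and over the 7 above background, of which 5 were higher, it was 0.30, with Ncan at 5.21 in DMEM/F12 and 4.81 in DMEM and Bcan at 4.58 in DMEM/F12 and 4.21 in DMEM. In the 29 matricellular and elastic fibre genes the median was 0.04, and over the 19 above background, of which 14 were higher, it was 0.14, with Ltbp2 at 4.65 in DMEM/F12 and 4.19 in DMEM and Fbln5 at 4.53 in DMEM/F12 and 4.25 in DMEM.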

How the data were processed

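BV2 cells in each medium gave 1 Affymetrix Mouse Gene 1.0 ST array. The deposited values are log2 signals of 28944 transcript clusters with 2 decimals, for which the submitters' processing notes name the Expression Console and the Transcriptome Analysis Console of Affymetrix. Software versions, summarization method, scaling of the arrays to each other and genome build: not given in the sources used here. Symbols came from the platform annotation, which gives 21789 clusters exactly 1 symbol. A gene took the mean over such clusters, and 5 clusters that pair a member with other symbols were not used. Probes differ in affinity, so signals were not compared between genes.

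The members, lists and fold thresholds of 1.3 and 1.5 were chosen with earlier results of these data known. Genes were named by rule: in each class the 3 with the highest mean signal and the 3 above background with the largest difference, all past 1.5-fold, those above background past 1.3-fold, a set list of integrins, glycoproteins and proteases, and 2 genes per pathway list. Named in addition, after their values were seen, were Itga2, Itgad, Itgb4, Lama1, Lama2, Lama3, Lama4, Lama5, Col1a2, Col4a1, Col4a2, Col5a1, Col6a1, Col18a1, Thbs2, Thbs4, Mmp8, Mmp11, Mmp13, Mmp20, Adam1b, Adam19, Adamts15, Adamts20 and Hpse. Adamts3, Adamts9 and Adamts17 were added for their number of clusters.

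With 1 array per medium no test was possible, and the number of arrays limits the precision. Values below background were raised to it for bounds. The alternatives were 3 scalings (median, quantile, loess with span 0.3), the brightest cluster per gene, other treatments of dim values, names that encode no integrin left out, and clusters with several symbols kept. Calculations used Python 3.11.15, numpy 2.4.6, pandas 2.3.3, statsmodels 0.14.6 and matplotlib 3.10.9, and the steps were tested on simulated data. The simulated noise was smaller than the spread of differences on these arrays. That test therefore checks the calculations and does not bear on how reliable a 1.3-fold difference is here.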

Additional observations from a re-analysis of the deposited data

How the results depend on the processing

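No paired analysis was possible because the design has no replicates. A log2 value counts as moved here past a shift of 0.1, and a count past a ratio of 1.5. Centring on the median, quantile normalization and subtraction of a loess curve each moved no class median and no gene named by rule. They shifted no member by over 0.039. In that order they gave 7, 7 and 6 in place of 9 genes at least 1.3-fold higher, and 9, 7 and 7 in place of 7 lower. The difference of Mmp23 was 0.36 under each, short of 1.3-fold. The number of genes at least 1.5-fold lower was 2 in place of 1 under these 3 scalings. It was 0 with only genes above background, with dim values set to background, or with clusters of several symbols kept. With values raised to background, 5 in place of 9 genes were at least 1.3-fold higher and 1 in place of 7 at least 1.3-fold lower, and the difference of Adam34 was 0.02, the distance between the backgrounds of the 2 arrays. With only genes above background, 2 were at least 1.3-fold lower, and the median difference was 0.10 for ADAMs in place of -0.06, 0.17 for MMPs in place of 0.06, and -0.36 in place of 0.05 for the class of fibronectin and thrombospondins. Col6a5 differed by 0.19 in its brightest cluster, in place of 0.34. With background at the 99th percentile of the receptor genes, chosen after seeing the data, 65 in place of 104 genes were above it.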
